A study of Mus musculus with 384 samples.

Results

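A set of interferon-stimulated genes, from Mx1, Mx2 and Eif2ak2 to nuclear body, cell death and cytokine genes, was followed in mouse macrophages over 4 h of stimulation. The list named 42 genes by symbol, with no threshold on their values, and 41 of them were in a table of 23481 genes. The remaining gene, Rnf213, is not analysed here. All 41 were among the 10562 genes with enough counts to be tested. They were ranked by speed, by ligand and by whether the response needed Myd88.

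The cells were bone marrow-derived macrophages of 13-week-old male C57BL/6 mice, either wild type (WT) or Myd88 knockout (KO), and every culture had been transduced on day 4 with a pool of reporter viruses and replated on day 9 at 125000 cells per well. Each genotype filled 2 plates of 96 wells, and each plate held 12 treatments (Pam3Cys, R848, CpG, FLA, LPS, MDP/LPS, MDP, TDB, HT-DNA, Poly(I:C), SeV and Zymosan) sampled once at 0, 0.5, 1, 1.5, 2, 2.5, 3 and 4 h. No dose is given in the sources used here. WT and KO never shared a plate, so genotype cannot be told apart from plate, and nothing says that the plates of 1 genotype came from separate mice, so the p-values measure the spread between plates.

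Interferon-stimulated genes are switched on when type I interferon, or the kinases upstream of it, activate Stat and Irf transcription factors, which bind interferon-stimulated response elements and gamma-activated sites. In macrophages, Toll-like receptors reach these genes by separate adaptors. Myd88 serves most of the family. Ticam1, which leads to Irf3 and interferon beta, serves the receptor for double-stranded RNA and, beside Myd88, that for lipopolysaccharide. Pam3Cys, R848 and CpG act on receptors that use Myd88, LPS (lipopolysaccharide) acts on Tlr4, Poly(I:C) is a double-stranded RNA analogue, SeV is the usual abbreviation of Sendai virus and zymosan is a yeast cell-wall preparation.

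The assay counted 3′ ends of transcripts, 1 tag per molecule fragment, so levels need no correction for transcript length and are given as CPM, a gene's counts scaled to a common total of all counts in the wells summed. Wells held 71720 to 767167 counts. For tests, the wells of a plate were summed into 4 time classes: the 12 wells at 0 h, an early class to 1 h, a middle class of 1.5 and 2 h, and a late class from 2.5 to 4 h. Pairs of values are the plates, replicate 1 first. Myd88 itself was at 30.4 and 35.0 CPM in WT and 14.5 and 17.0 CPM in KO at time 0; whether the counted 3′ end lies outside the deleted part is not given in the sources used here. Macrophage markers (9 of 10 in the table) summed to 3639 to 4039 CPM per plate at time 0. The lists for T, B, NK and erythroid cells reached at most 1.58 CPM, dendritic cell and fibroblast lists at most 7.34 CPM, and the neutrophil list 112 to 181 CPM. The part of neutrophil RNA in the results was not tested.

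Promoter sequence was available from RefSeq (GRCm38.p6, 250 bases before to 50 bases after each start) for 33 of the 41 genes. The core of an interferon-stimulated response element, taken as GAAA, any 2 bases and GAAA again, was found on either strand in 5 of 33 (15.2%; Bst2, Ddx60, Eif2ak2, Lgals9 and Tdrd7), beside 3.99% of 27025 genes. The core of a gamma-activated site, TTCNNNGAA, was found in 6 of 33 (18.2%), beside 9.55% of all genes, and an NF-kB type motif, GGGA, any base and TTTCC, in 0 of 33, beside 0.47%. The 4 promoters below are shown because Ddx60 and Eif2ak2 carry the interferon-type core, while Fgl2 and N4bp1 were the members called with the Myd88-using ligands. Capitals mark matches to these motifs. The Eif2ak2 window spans chr17:78882523-78882822 (minus strand), with a response element match at positions 18 to 27 from the start (position 0) and a TTCNNNGAA match at -178 to -170. The Ddx60 window spans chr8:61927837-61928136 (plus strand), with response element matches at -53 to -44 and at -19 to -10. The Fgl2 window spans chr5:21372423-21372722 (plus strand) with 1 TTCNNNGAA match at -36 to -28, and the N4bp1 window spans chr8:86885209-86885508 (minus strand) with none of the 3 motifs. A match describes letters only.
Eif2ak2: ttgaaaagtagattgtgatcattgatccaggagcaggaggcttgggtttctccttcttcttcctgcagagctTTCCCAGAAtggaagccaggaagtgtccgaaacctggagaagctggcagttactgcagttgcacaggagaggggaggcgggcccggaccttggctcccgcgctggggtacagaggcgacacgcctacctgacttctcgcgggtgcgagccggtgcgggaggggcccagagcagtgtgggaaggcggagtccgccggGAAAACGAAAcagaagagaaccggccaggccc
Ddx60: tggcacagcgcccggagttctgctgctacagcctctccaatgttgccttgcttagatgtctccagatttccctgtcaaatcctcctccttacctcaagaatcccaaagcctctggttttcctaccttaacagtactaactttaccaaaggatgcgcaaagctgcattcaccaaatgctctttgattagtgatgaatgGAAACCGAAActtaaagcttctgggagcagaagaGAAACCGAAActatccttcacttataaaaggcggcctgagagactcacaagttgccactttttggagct
Fgl2: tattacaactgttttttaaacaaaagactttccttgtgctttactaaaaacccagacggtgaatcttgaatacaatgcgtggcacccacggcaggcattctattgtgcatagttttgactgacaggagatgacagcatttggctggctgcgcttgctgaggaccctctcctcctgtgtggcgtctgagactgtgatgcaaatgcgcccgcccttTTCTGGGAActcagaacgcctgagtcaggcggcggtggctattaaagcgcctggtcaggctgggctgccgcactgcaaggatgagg
N4bp1: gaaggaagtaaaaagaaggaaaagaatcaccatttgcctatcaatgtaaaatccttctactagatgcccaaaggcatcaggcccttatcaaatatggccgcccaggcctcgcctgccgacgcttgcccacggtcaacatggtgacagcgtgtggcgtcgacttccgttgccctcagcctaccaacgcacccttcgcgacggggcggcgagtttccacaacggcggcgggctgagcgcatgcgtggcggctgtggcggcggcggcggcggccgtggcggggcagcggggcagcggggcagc

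The genes rose late with 5 of the 12 treatments. In WT macrophages 27 of 41 members rose with LPS, 28 with MDP/LPS, 31 with Poly(I:C), 26 with SeV and 16 with Zymosan (edgeR quasi-likelihood test, Benjamini-Hochberg adjusted p under 0.05 over all tested genes). Over all tested genes, 4.55% rose with LPS, 4.51% with MDP/LPS, 3.88% with Poly(I:C), 2.53% with SeV and 3.61% with Zymosan. In KO macrophages 26 of 41 members rose with LPS, 21 with MDP/LPS, 33 with Poly(I:C), 30 with SeV and 26 with Zymosan, where the shares of all genes were 3.26%, 3.38%, 4.86%, 3.31% and 3.34%. The median member changed by 1.81 on the log2 scale with LPS in WT and by 1.66 in KO, beside -0.13 and -0.12 over all genes. No member fell late with any treatment in either genotype, while 0% to 1.74% of all genes fell in WT and 0% to 3.1% in KO over the 12 treatments. With LPS and MDP/LPS averaged, 30 of 41 rose in WT and 28 in KO, beside 5.42% and 3.93% of all genes, and with Poly(I:C) and SeV averaged 29 and 34, beside 3.36% and 4.44%. The log2 changes are scaled by edgeR's TMM factors and the CPM are not; with library size alone the LPS median in WT was 1.48 for the members and -0.32 for all genes. The WT counts rested on both WT plates: without WT replicate 1 they were 5 with LPS, 6 with MDP/LPS, 7 with Poly(I:C), 7 with SeV and 0 with Zymosan, and without WT replicate 2 they were 8, 6, 8, 9 and 0, in fits where a lone plate is assumed to vary like the other groups.

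**Figure D1:**
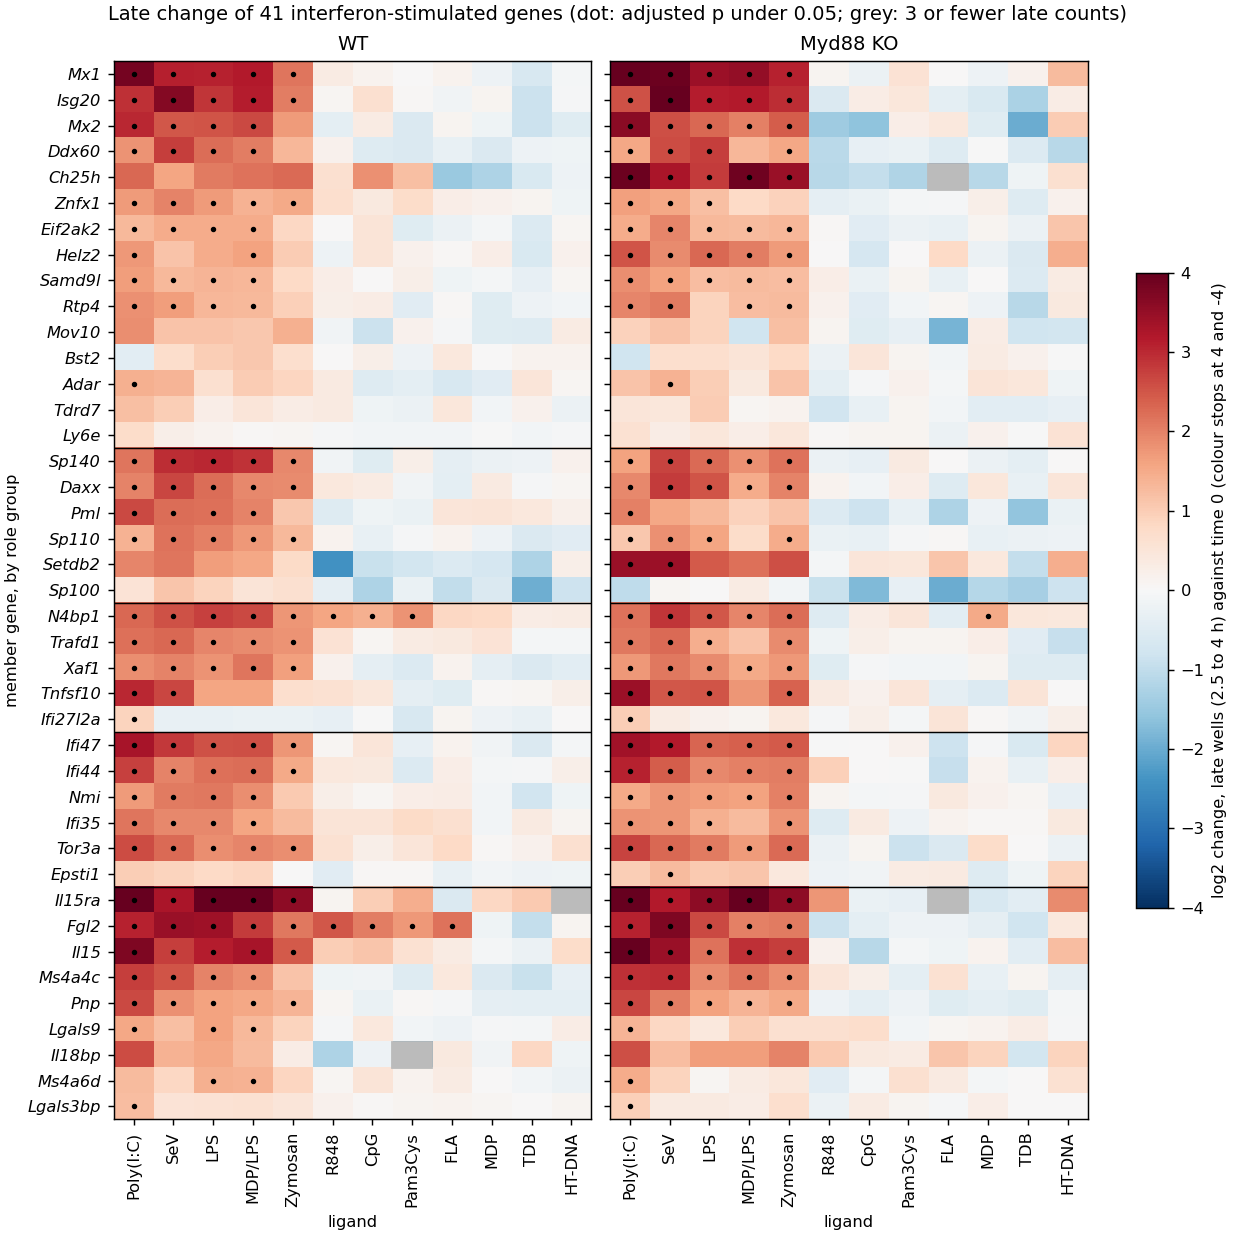
Late log2 change against time 0 (colour, no units, stopping at 4 and -4) of 41 interferon-stimulated genes (rows, grouped by role) with 12 ligands (columns) in WT and Myd88 KO macrophages, 2 plates each. Dots mark adjusted p under 0.05 and grey marks 3 or fewer late counts; dots stand in the first 5 columns for 16 to 33 members, and in the other 7 columns for Fgl2 and N4bp1 alone.

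The genes split into 13 that rose late with all 5 of these treatments in both genotypes, 22 that rose with at least 1 treatment in at least 1 genotype, and 6 that passed with none. The 13 were Daxx, Fgl2, Ifi44, Ifi47, Il15, Il15ra, Isg20, Mx1, N4bp1, Pnp, Sp140, Tor3a and Xaf1. The 6 were Bst2, Il18bp, Ly6e, Mov10, Sp100 and Tdrd7. With R848, CpG, Pam3Cys and FLA the calls in WT were Fgl2 with all 4 and N4bp1 with the first 3, beside 1.85%, 1.53%, 1.92% and 0.492% of all genes, and in KO 0 of 164 pairs passed (edgeR; 7 at an unadjusted p under 0.05, 0 with DESeq2). Of 10562 tested genes, 2 rose late with R848 in KO and 1 each with CpG, Pam3Cys and FLA. In WT, 15 rose late with TDB, 3 with MDP and 2 with HT-DNA. Few genes of any kind rose in these groups, so zeros there are not particular to the members. With MDP, TDB and HT-DNA, 0 of 123 pairs passed in WT (edgeR, with 3 at an unadjusted p under 0.05 and 0 with DESeq2) and 1 in KO. That was N4bp1 with MDP, at 37.1 and 38.8 CPM at time 0 and 79.6 and 135 CPM late, a log2 change of 1.53 (SE 0.36, adjusted p = 0.0262), beside 0.189% of all genes. It did not pass without the filter on low counts (1.49, adjusted p = 0.0519), with carry-over subtracted, with late as 3 and 4 h, or without WT replicate 1, WT replicate 2 or KO replicate 2 (1.13, adjusted p = 1), with an adjusted p over the alternatives from 3.73e-06 to 1.

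Among 15 genes grouped as effectors on viral RNA or particles, 8 rose with LPS in WT (Ddx60, Eif2ak2, Isg20, Mx1, Mx2, Rtp4, Samd9l and Znfx1) and 9 in KO, where Ch25h and Helz2 passed and Rtp4 did not. Mx1, of the family of dynamin-like GTPases, was at 96.7 and 112 CPM at time 0 in WT and at 705 and 694 CPM late with LPS, a log2 change of 3.07 (SE 0.47, adjusted p = 7.38e-07). In KO it went from 56.7 and 51.3 to 542 and 453 CPM, a log2 change of 3.43 (SE 0.49, adjusted p = 1.12e-07). Both late plates lay above both time 0 plates in each genotype. Its highest level came with Poly(I:C), 1313 and 1307 CPM in WT and 1285 and 1033 CPM in KO. Reads of Mx1 and its close relative Mx2, which the annotation lists as a polymorphic pseudogene in this strain, may be shared, as may those of Sp100, Sp110 and Sp140 and of Ms4a4c and Ms4a6d. Whether the RNA of Mx1 or Mx2 gave working protein in these cells was not tested.

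Isg20, an exonuclease that degrades RNA, had the largest late change of the effectors with SeV in WT. It was at 18.6 and 10.4 CPM at time 0 in WT and at 73.6 and 96.0 CPM with LPS, 86.5 and 109 CPM with Poly(I:C) and 145 and 157 CPM with SeV. Its log2 change was 2.86 (SE 0.65, adjusted p = 0.000832) with LPS and 3.67 (SE 0.67, adjusted p = 2.09e-05) with SeV in WT. In KO it was at 10.7 and 13.5 CPM at time 0 and at 173 and 188 CPM with SeV, so the late plates lay above the time 0 plates in both genotypes. Eif2ak2, the kinase that halts translation on double-stranded RNA and whose promoter is printed above, started high, at 403 and 322 CPM in WT, and reached 833 and 793 CPM with LPS, a log2 change of 1.49 (SE 0.33, adjusted p = 0.000661). In KO it went from 264 and 313 to 431 and 782 CPM, with KO plates further apart than WT plates. Ddx60, a helicase with 2 interferon-type cores in its promoter, went from 56.9 and 60.0 to 214 and 222 CPM in WT and from 31.5 and 47.5 to 224 and 232 CPM in KO.

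Of the other effectors, Mx2 was at 29.2 and 40.1 CPM at time 0 in WT, 155 and 165 CPM with LPS, 221 and 268 CPM with Poly(I:C) and 166 and 150.0 CPM with SeV. Rtp4, a receptor transporter, went from 172 and 177 to 630.0 and 456 CPM with Poly(I:C) in WT and from 208 and 193 to 691 and 697 CPM in KO. Samd9l, a restriction factor of poxviruses, went from 168 and 148 to 426 and 460.2 CPM and from 99.1 and 102 to 347 and 309.6 CPM. In each of these genes both Poly(I:C) plates lay above both time 0 plates. Helz2 passed with MDP/LPS and Poly(I:C) in WT and with all 5 treatments in KO. Ch25h passed with all 5 in KO, from 4.69 and 9.90 CPM at time 0 to 23.2 and 64.3 CPM with LPS and 57.0 and 129.8 CPM with MDP/LPS, and with none in WT, from 13.9 and 20.8 CPM to 55.2 and 63.6 and 62.1 and 63.3 CPM. The time 0 level of Ch25h was lower in both KO plates than in both WT plates, and its change with LPS did not differ between the genotypes at the threshold (KO minus WT 0.70 (SE 1.06, adjusted p = 1)).

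Of 6 genes of nuclear bodies and chromatin, 4 rose with LPS in WT (Sp140, Daxx, Pml and Sp110) and 3 in KO, without Pml. Sp140, a chromatin reader of nuclear bodies, was at 84.3 and 87.1 CPM at time 0 and at 531 and 573 CPM late with LPS in WT, a log2 change of 3.01 (SE 0.36, adjusted p = 3.32e-11). The KO plates went from 60.3 and 73.6 to 317 and 239 CPM, a log2 change of 2.28 (SE 0.36, adjusted p = 4.27e-07), and lay below both WT plates late. Daxx, a histone chaperone, was at 96.7 and 121 CPM at time 0 in WT and at 381 and 446 CPM late, and in KO at 66.5 and 84.3 CPM and then 343 and 394 CPM. Its log2 change was 2.24 (SE 0.43, adjusted p = 4.81e-05) in WT and 2.52 (SE 0.43, adjusted p = 9.46e-06) in KO. Setdb2, of the histone methyltransferase family, passed with Poly(I:C) and SeV in KO, from 3.83 and 5.84 CPM at time 0 to 36.8 and 61.6 and 42.4 and 44.4 CPM, and in WT was at 16.5 and 10.1 CPM and then 36.1 and 55.3 and 36.0 and 59.6 CPM. Sp110 started high, at 229.7 and 228 CPM in WT, and reached 736 and 738 CPM with LPS and 859 and 821 CPM with SeV. Sp100 was called with none, at 34.9 and 34.7 CPM at time 0 and 58.6 and 44.2 CPM late with LPS in WT.

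Of 5 genes of cell death and ubiquitin pathways, 3 rose with LPS in WT (N4bp1, Trafd1 and Xaf1) and 4 in KO, with Tnfsf10. N4bp1, an RNA-binding protein that limits NF-kB driven cytokines, was at 50.4 and 67.2 CPM at time 0 and at 346 and 280.5 CPM late with LPS in WT, a log2 change of 2.73 (SE 0.37, adjusted p = 2.48e-09). In KO it went from 37.1 and 38.8 to 162 and 203 CPM, a log2 change of 2.49 (SE 0.37, adjusted p = 1.14e-07). Trafd1, a zinc finger protein that dampens innate signalling, went from 54.1 and 60.3 to 181 and 175 CPM in WT and from 72.7 and 49.0 to 149.9 and 132 CPM in KO, with log2 changes of 1.96 (SE 0.37, adjusted p = 3.63e-05) and 1.44 (SE 0.38, adjusted p = 0.00719). Late plates lay above time 0 plates for both genes in both genotypes. Tnfsf10, the death ligand TRAIL, was at 21.8 and 24.9 CPM at time 0 in WT, at 64.4 and 47.5 CPM with LPS and at 148 and 186 CPM with Poly(I:C), and it passed with Poly(I:C) and SeV in WT and with LPS, Poly(I:C), SeV and Zymosan in KO, where it reached 132 and 156 CPM with Poly(I:C) from 16.4 and 13.5 CPM. Xaf1, which counters the anti-apoptotic protein Xiap, went from 185 and 197 to 618 and 610.5 CPM with SeV in WT and from 112 and 151 to 421 and 516 CPM in KO.

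Of 6 Ifi-named and scaffold genes, 5 rose with LPS in each genotype (Ifi35, Ifi44, Ifi47, Nmi and Tor3a), and Epsti1 passed with SeV in KO. Ifi47, an interferon-inducible GTPase, was at 75.5 and 97.2 CPM at time 0 and at 440.1 and 372 CPM with LPS in WT, a log2 change of 2.56 (SE 0.41, adjusted p = 7.88e-07), and in KO at 73.7 and 89.6 CPM and then 324 and 374 CPM. With Poly(I:C) it reached 819 and 665 CPM in WT and 811 and 709 CPM in KO. Ifi44, a cytoplasmic antiviral protein, went from 51.2 and 55.2 to 223 and 165 CPM with LPS in WT and from 26.8 and 43.4 to 107 and 122 CPM in KO, with log2 changes of 2.19 (SE 0.47, adjusted p = 0.000317) and 1.93 (SE 0.48, adjusted p = 0.00411). The late and time 0 plates of both genes did not overlap within either genotype. Nmi and Ifi35 are binding partners: Nmi went from 49.2 and 54.9 to 165 and 195 CPM and Ifi35 from 35.1 and 42.3 to 105 and 129 CPM with LPS in WT, and in KO they reached 124 and 105 CPM and 98.9 and 117 CPM. Epsti1 was at 63.7 and 71.8 CPM at time 0 and 142 and 125 CPM with SeV in KO, a log2 change of 1.25 (SE 0.36, adjusted p = 0.0252), and at 96.3 and 85.2 and 137 and 135 CPM in WT, a log2 change of 0.88 (SE 0.36, adjusted p = 0.322) that did not pass.

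Of 9 secreted, surface and metabolic genes, 7 rose with LPS in WT and 5 in KO (Fgl2, Il15, Il15ra, Ms4a4c and Pnp), with Lgals9 and Ms4a6d called in WT. Il15ra, the receptor chain that presents interleukin 15, had the largest late LPS change of all 41 members in WT. It was at 2.04 and 6.00 CPM at time 0, 10 and 19 counts, and at 64.4 and 58.3 CPM late, a log2 change of 4.23 (SE 0.96, adjusted p = 0.000822). In KO it went from 3.62 and 4.32 to 60.3 and 23.7 CPM, and the KO plates late were further apart than the WT plates. Its ligand Il15 went from 17.8 and 22.1 to 153 and 129 CPM in WT and from 14.7 and 24.6 to 57.2 and 93.0 CPM in KO, where the log2 changes were 3.14 (SE 0.63, adjusted p = 0.000139) and 2.16 (SE 0.63, adjusted p = 0.0252). Fgl2, a fibrinogen-like protein of macrophages, was at 60.4 and 82.1 CPM at time 0 and at 664 and 532 CPM late in WT, and at 47.1 and 37.3 CPM and then 263 and 189 CPM in KO. Its log2 change was 3.39 (SE 0.43, adjusted p = 3.02e-10) in WT and 2.65 (SE 0.42, adjusted p = 9.45e-07) in KO.

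By ligand, Poly(I:C) gave the highest late level of 26 members in WT and 22 in KO, SeV of 9 and 11, LPS of 4 and 2, MDP/LPS of 2 and 2, Zymosan of 0 and 3 and HT-DNA of 0 and 1. These levels are CPM, without TMM. In WT, leaving out TMM shifted the median log2 change over all genes by -0.19 with Poly(I:C), -0.30 with SeV and -0.32 with LPS. Near ties, such as Trafd1 at a mean of 232 CPM with Poly(I:C) and 227 CPM with SeV in WT, may thus change order. Most neighbours in that order did not differ beyond the plates: of 41 members, 0 differed between SeV and LPS or between Zymosan and LPS in WT (edgeR; 0 and 9 at an unadjusted p under 0.05, and 0 in each with DESeq2), and 0 between MDP/LPS and LPS (0 unadjusted, 0 with DESeq2). In WT, 0 of 10562 tested genes differed between Zymosan and LPS or between MDP/LPS and LPS. The zeros of these pairs are thus not particular to the members. Between SeV and LPS, 38 genes were higher and 86 lower with SeV. These ligand comparisons were chosen after seeing the data. Against LPS, Poly(I:C) gave a higher level in WT of Ifi27l2a and Pnp (0.265% of all genes were higher) and a lower level of Bst2 (0.691% were lower). Ifi27l2a, a small mitochondrial protein, was at 522 and 565 CPM at time 0, 317 and 398 CPM with LPS and 959.7 and 788 CPM with Poly(I:C) in WT, a log2 difference of 1.16 (SE 0.26, adjusted p = 0.00333). In KO it was at 396 and 597 CPM with LPS and 837 and 996 CPM with Poly(I:C), and Poly(I:C) was the single treatment with which it rose in either genotype.

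Pnp, purine nucleoside phosphorylase, was higher with Poly(I:C) than with LPS in both genotypes, at 1008 and 771 against 422 and 375 CPM in WT and 918 and 639 against 345 and 372 CPM in KO, where 0.322% of all genes were higher. Bst2, the membrane tether of budding viruses, was lower with Poly(I:C) than with LPS in both, at 18.4 and 81.0 against 125 and 115 CPM in WT and 59.7 and 41.1 against 139 and 125 CPM in KO (0.322% of all genes lower). The WT difference of Bst2 rested on 1 plate: its log2 value was -1.40 with both plates and -0.65, adjusted p = 1, without WT replicate 1. Over the alternatives its adjusted p ran from 0.0034 to 1. In KO, Bst2 was also higher with SeV (111 and 146 CPM) and with Zymosan (157 and 142 CPM) than with Poly(I:C), beside 0.502% and 0.0852% of all genes.

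Zymosan gave lower levels than Poly(I:C) of 6 members in WT: Ifi27l2a, Ifi47, Ms4a4c, Mx1, Pnp and Tnfsf10, beside 0.672% of all genes. Tnfsf10 differed most, at 30.8 and 32.0 CPM with Zymosan and 148 and 186 CPM with Poly(I:C), a log2 difference of -2.35 (SE 0.63, adjusted p = 0.0275). Mx1 was at 378 and 400.4 CPM with Zymosan, below the Poly(I:C) plates given above, a log2 difference of -1.70 (SE 0.45, adjusted p = 0.0276). Ms4a4c, a membrane protein of macrophages, was at 91.7 and 113 CPM with Zymosan and 373 and 289 CPM with Poly(I:C). Plates did not overlap for any of these 3 genes. In KO, Pnp alone was lower with Zymosan than with Poly(I:C), beside 0.0757% of all genes. Fgl2 was lower with Zymosan (149.8 and 162 CPM) than with SeV (392 and 534 CPM) in KO, beside 0.294% of all genes. Ifi27l2a was also lower with SeV (373 and 342 CPM) than with Poly(I:C) in WT, beside 0.294% of all genes. The number of such WT differences, 10 over the 7 pairs of ligands, became 0 without WT replicate 1, 1 without WT replicate 2 and 22 without either KO plate. The 6 in KO became 0 without either WT plate, 3 without KO replicate 1 and 1 without KO replicate 2.

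By speed, calls of the members came late. Within the first hour 0 of 492 member-ligand pairs passed in WT and 0 of 492 in KO (edgeR; 12 and 29 at an unadjusted p under 0.05, 1 and 2 with DESeq2), where 0% to 0.634% of all genes passed in WT and 0.00947% to 0.625% in KO. The early counts became 1 in WT without either KO plate and 5 in KO without KO replicate 1. At 1.5 to 2 h, 7 pairs passed in WT and 15 in KO, and N4bp1 made up 6 of the 7 and 5 of the 15. In WT, N4bp1 passed at that time with LPS, MDP/LPS, Pam3Cys, Poly(I:C), R848 and Zymosan, where between 0.691% (Poly(I:C)) and 1.97% (LPS) of all genes rose. It was at 174 and 236 CPM with LPS, 146 and 192 CPM with R848 and 193 and 152 CPM with Pam3Cys, all above its time 0 plates. The remaining WT pair was Mx1 with LPS, at 276 and 301 CPM, a log2 change of 1.65 (SE 0.46, adjusted p = 0.0265).

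In KO at 1.5 to 2 h, N4bp1 passed with LPS, MDP/LPS, MDP, Poly(I:C) and Zymosan, and the other risers were Helz2 with LPS, Ch25h with MDP/LPS and Zymosan, Mx1 with Poly(I:C) and SeV, Pnp with Poly(I:C), Fgl2 and Mx2 with SeV and Daxx with Zymosan. Of all genes, 1.49% rose at that time with LPS, 1.69% with MDP/LPS, 0.123% with MDP, 1.71% with Poly(I:C), 0.587% with SeV and 1.39% with Zymosan. Ch25h, which makes 25-hydroxycholesterol, was at 4.69 and 9.90 CPM at time 0 and at 67.8 and 95.3 CPM with MDP/LPS and 40.8 and 82.2 CPM with Zymosan, with log2 changes of 3.58 (SE 0.82, adjusted p = 0.00308) and 3.18 (SE 0.82, adjusted p = 0.0164). Helz2, a helicase, was at 24.1 and 18.8 CPM at time 0 and 81.2 and 63.1 CPM with LPS. With SeV, Mx1 reached 201 and 363 CPM, Mx2 78.9 and 109.5 CPM and Fgl2 77.2 and 178 CPM, and all lay above their time 0 plates, which for Mx2 were 24.5 and 18.5 CPM. The middle counts depended on single plates: in WT they were 0 without either WT plate and 20 without either KO plate, and in KO 7 without WT replicate 1, 6 without WT replicate 2 and 7 without KO replicate 2.

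To order members finer than the time classes, the time at which each plate crossed the midpoint between its time 0 level and its mean late level was read from single wells, for members that rose late. This is a description with no test, since 2 plates against 2 cannot reach an exact two-sided p below 0.333. The median midpoint was 2.10 h with LPS over 27 members in WT and 1.94 h over 26 in KO, 2.27 and 2.21 h with SeV, 2.49 and 2.41 h with Poly(I:C) and 2.48 and 2.17 h with Zymosan. The plates of 1 member differed by a median of 0.29 h with LPS in WT and by up to 2.32 h, so most neighbours in the order did not differ beyond their plates. By role, the median midpoint with LPS in WT was 1.89 h for 8 effectors, 1.99 h for 4 nuclear genes, 2.03 h for 7 secreted and surface genes, 2.15 h for 5 Ifi-named and scaffold genes and 2.43 h for 3 cell death genes. That order did not hold with the other ligands: with SeV in WT the cell death genes were earliest (2.14 h) and the nuclear genes latest (2.56 h), and with Poly(I:C) the effectors were earliest (2.29 h) and the nuclear genes latest (2.61 h).

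The earliest means with LPS in WT were Mx2, Daxx, Lgals9 and Pml. Mx2 crossed at 1.65 and 0.96 h, and with the plates summed at 1.74 h, after N4bp1 at 1.69 h. The early means of Daxx, Lgals9 and Pml rested on 1 plate each: Daxx crossed at 2.18 and 0.99 h, Lgals9, a galectin, at 2.66 and 0.62 h and Pml, the organiser of nuclear bodies, at 2.81 and 0.49 h. Next came N4bp1 at 1.83 and 1.59 h, Znfx1 at 1.88 and 1.64 h and, further down, Mx1 at 1.91 and 1.90 h. The latest were Sp110 at 2.64 and 2.67 h, Ms4a4c at 2.70 and 2.41 h, Eif2ak2 at 2.55 and 2.50 h and Nmi at 2.37 and 2.63 h. The plates of these 4 all crossed after both plates of Mx2 and later than both plates of N4bp1, Znfx1 and Mx1. With SeV in WT, Mx2 again crossed early, at 1.72 and 1.48 h, and Sp110 last, at 2.62 and 2.60 h. With Poly(I:C) in WT, Ifi27l2a crossed first, at 0.16 and 0.09 h, and in KO at 0.27 and 0.24 h. Times under 0.5 h come before the first treated well, so they are interpolated and do not date a rise. The early rise of Ifi27l2a was 141% and 159% of its late rise in WT, so its time is not the midpoint of a late rise. It was at 1232 and 1169 CPM at 0.5 h in WT, and its early change was 0.84 (SE 0.25, adjusted p = 0.275) on the log2 scale and did not pass. Lgals3bp (0.27 and 1.39 h), Adar (0.22 and 2.41 h) and N4bp1 (1.37 and 1.46 h) followed, and Ms4a4c was last, at 2.74 and 3.05 h, with Isg20, Nmi and Sp110 just before it.

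**Figure D2:**
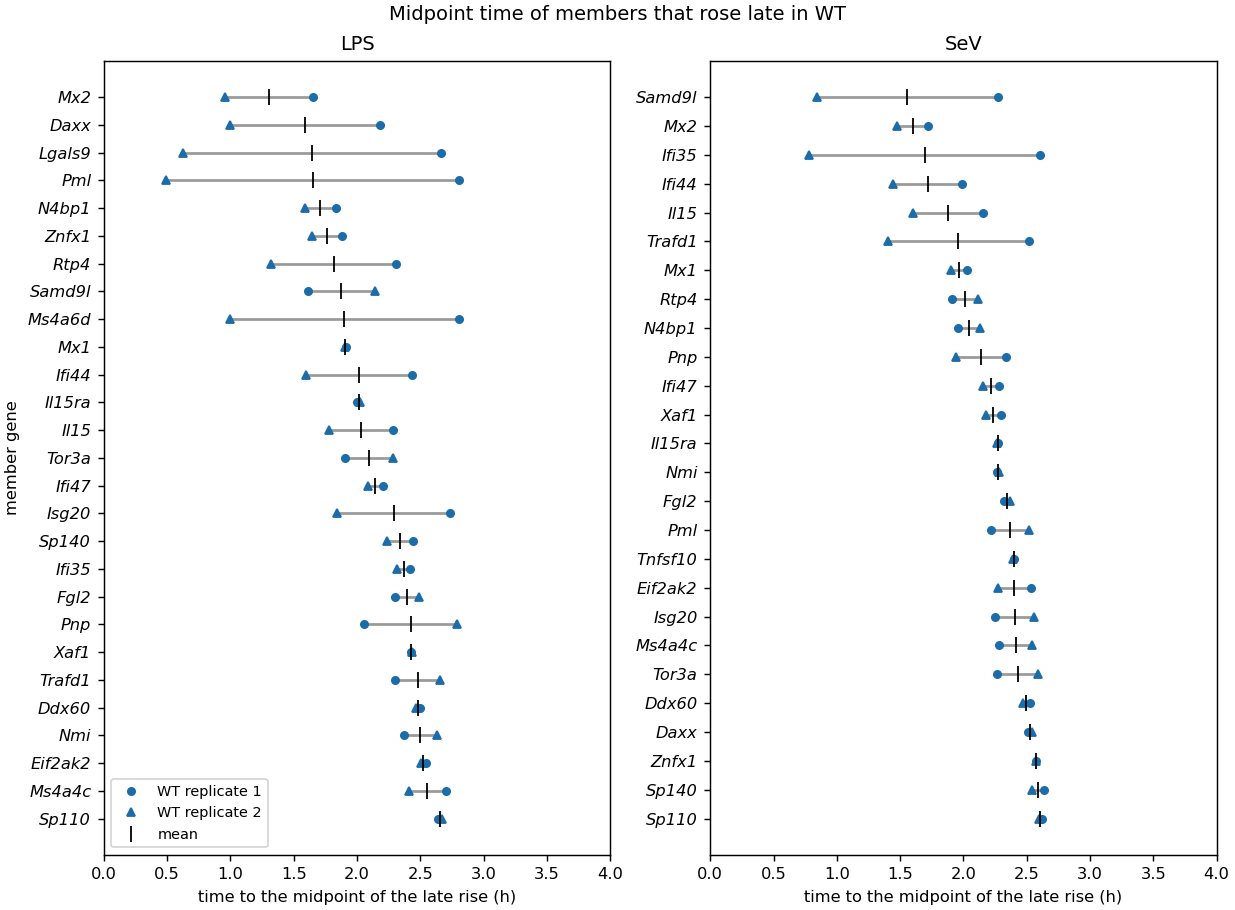
Time in hours at which each member crossed the midpoint of its late rise with LPS (27 members) and SeV (26 members) in WT; circles and triangles are the plates, black ticks their mean, and grey lines join the plates. Sp110 is last in both panels with plates close together, while the widest lines, such as that of Pml with LPS, belong to members whose plates disagree.

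These times come from single LPS wells, of which 3 genes are shown. In WT, Mx1 was at 83.2 and 128 CPM at 1.5 h, 461 and 465 CPM at 2 h and 759.6 and 851 CPM at 3 h. Fgl2 was at 162 and 202 CPM at 2 h, 686 and 476 CPM at 3 h and 750.0 and 755 CPM at 4 h, and Eif2ak2 at 420.2 and 317 CPM at 2 h and 1219 and 1105 CPM at 3 h. Mx1 had thus left its time 0 range by 2 h, when Eif2ak2 had not. Between the genotypes the midpoints with LPS moved in both directions. In both KO plates Mx1 (2.57 and 2.57 h), Fgl2 (2.69 and 2.71 h) and Ddx60 (2.62 and 2.56 h) crossed later than in both WT plates. For Daxx (2.55 and 2.19 h) the genotypes were not clearly apart, with KO replicate 2 at 2.188 h and WT replicate 1 at 2.182 h. Ifi35 (0.73 and 0.84 h, against 2.42 and 2.31 h in WT), Il15ra (1.46 and 1.56 h, against 2.00 and 2.03 h), Eif2ak2 (1.63 and 0.46 h) and Sp110 (1.44 and 2.57 h) crossed earlier. For the other members that rose with LPS in both genotypes the plates overlapped. The earlier KO crossings did not all last, by the rise at 1.5 to 2 h as a share of the late rise. That share was 20.7% and -4.84% for Ifi35, 16.4% for Eif2ak2 replicate 2 and 17.4% for Sp110 replicate 1. It was 88.3% for Eif2ak2 replicate 1 and 34.5% and 81.3% for Il15ra. With SeV the Mx1 times were 2.03 and 1.90 h in WT and 2.13 and 1.75 h in KO and overlapped. At 1.5 to 2 h, the change of Mx1 with LPS did not differ between the genotypes beyond the plates (log2 difference, KO minus WT, -0.12 (SE 0.67, adjusted p = 1)).

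**Figure D3:**
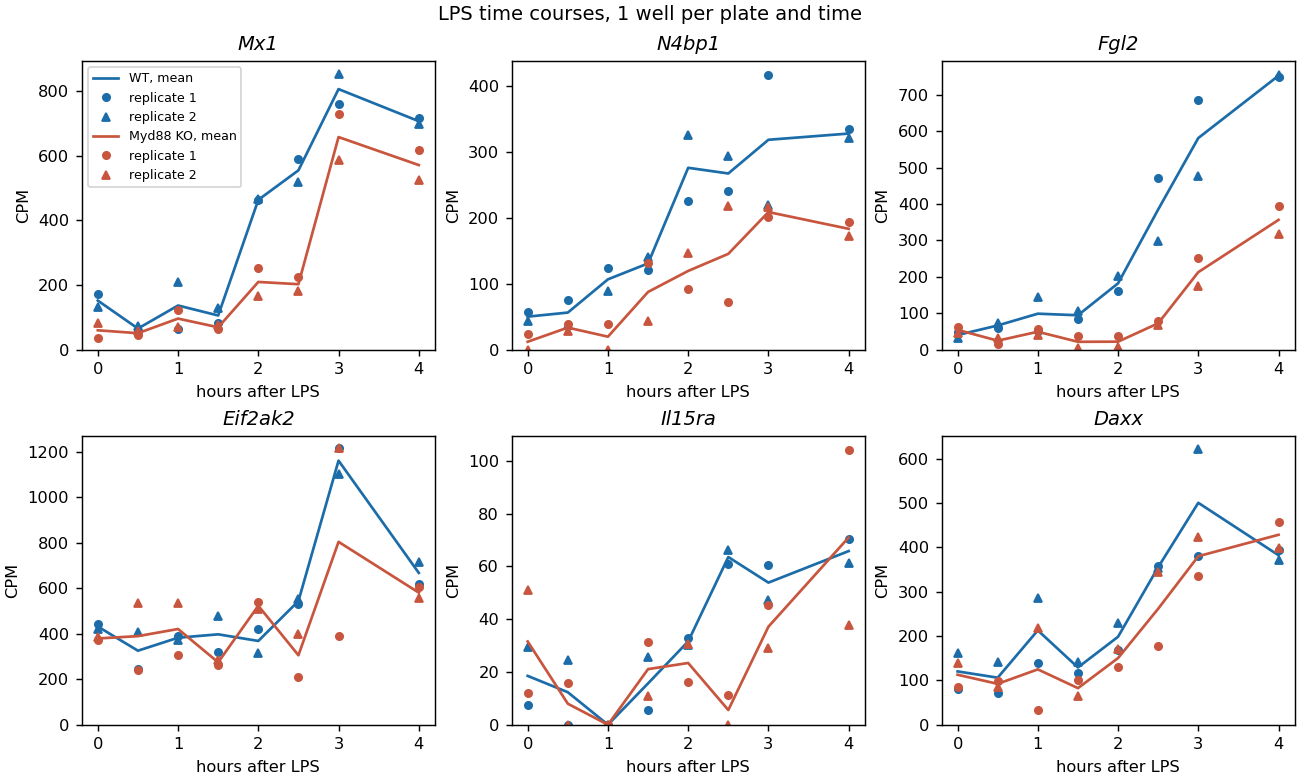
CPM against hours after LPS for 6 members, 1 well per plate and time; blue is WT, red is Myd88 KO, circles and triangles are replicates 1 and 2, and lines join their means. Mx1 and N4bp1 stand above time 0 in both WT wells at 2 h, Eif2ak2 at 2.5 and 3 h, and the KO wells of Fgl2 stay under 100 CPM through 2.5 h.

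With the ligands of Myd88-using receptors, Fgl2 and N4bp1 were the members called as risen late, and these calls were in WT. Other members may have changed without passing: the late level of Ch25h was lower in KO than in WT with CpG and with Pam3Cys. Its time 0 level was also lower in both KO plates. FLA was grouped with Pam3Cys, R848 and CpG under its usual reading, flagellin. Averaged over these 4 ligands, 2 of 41 members rose late in WT, beside 2.32% of all genes, and 0 rose in KO (edgeR; 2 at an unadjusted p under 0.05 and 0 with DESeq2), beside 0.00947% of all genes. Fgl2 was at 329 and 388 CPM with R848, 179 and 339 CPM with CpG, 225 and 219 CPM with Pam3Cys and 365 and 249 CPM with FLA in WT. In KO it was at 26.0 and 15.9 CPM with R848, 28.5 and 34.6 CPM with CpG, 32.9 and 41.2 CPM with Pam3Cys and 30.0 and 38.6 CPM with FLA. Every WT plate lay above every KO plate, as was already so at time 0. The late change was different in KO by -2.53 (SE 0.47, adjusted p = 0.000181) on the log2 scale for the mean of the 4 ligands, by -3.32 (SE 0.63, adjusted p = 0.000932) for R848 and by -2.44 (SE 0.59, adjusted p = 0.0211) for CpG. With FLA and Pam3Cys the differences were -2.40 (SE 0.61, adjusted p = 0.0888) and -1.95 (SE 0.59, adjusted p = 0.131) and did not pass.

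N4bp1 in WT was at 129.8 and 191 CPM with R848, 89.5 and 188 CPM with CpG, 178 and 204 CPM with Pam3Cys and 85.1 and 111 CPM with FLA late. In KO it was at 29.4 and 19.1, 50.9 and 42.0, 60.4 and 49.1 and 17.5 and 34.3 CPM. The WT and KO plates did not overlap with any of the 4 ligands, nor did they at time 0. The change differed between the genotypes with R848, by -2.10 (SE 0.55, adjusted p = 0.0399) on the log2 scale, and over the mean of the 4 ligands it was -1.43 (SE 0.41, adjusted p = 0.057). With a replicate block for the plates, 2 of 41 members passed over that mean instead of 1, as they did without KO replicate 1, and 0 passed without either WT plate. Of all genes, 0.464% had a lower change in KO with R848, 0.464% with CpG and 0.786% over the mean of the 4. These calls rested on both WT plates. Without WT replicate 1 the Fgl2 difference with R848 was -3.24, adjusted p = 0.485, and without WT replicate 2 it was -3.49, adjusted p = 0.164, with a range of adjusted p over the alternatives of 1.43e-06 to 0.485. The N4bp1 difference with R848 was lost in 7 of 12 alternatives, among them without WT replicate 1, without WT replicate 2 and without KO replicate 2, with an adjusted p from 0.000453 to 1, and the Fgl2 difference with CpG was lost in 4, also without KO replicate 1. The promoters printed above differ in that the Fgl2 window holds a TTCNNNGAA match and the N4bp1 window does not.

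With R848 at 1.5 to 2 h, Fgl2 stood at 111 and 114 CPM in WT and at 3.22 and 0 CPM in KO, where 2 counts were seen in 820306. Against 368 counts in 8632831 at time 0, the KO ratio was 0.057, with a 95% exact interval of 0.0069 to 0.208 that covers counting error only. Beside it, 0.00947% of all genes fell in KO and 0.104% had a lower change in KO than in WT. The KO call did not pass in 8 of the 12 alternatives, with an adjusted p from 0.000194 to 0.329.

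**Figure D4:**
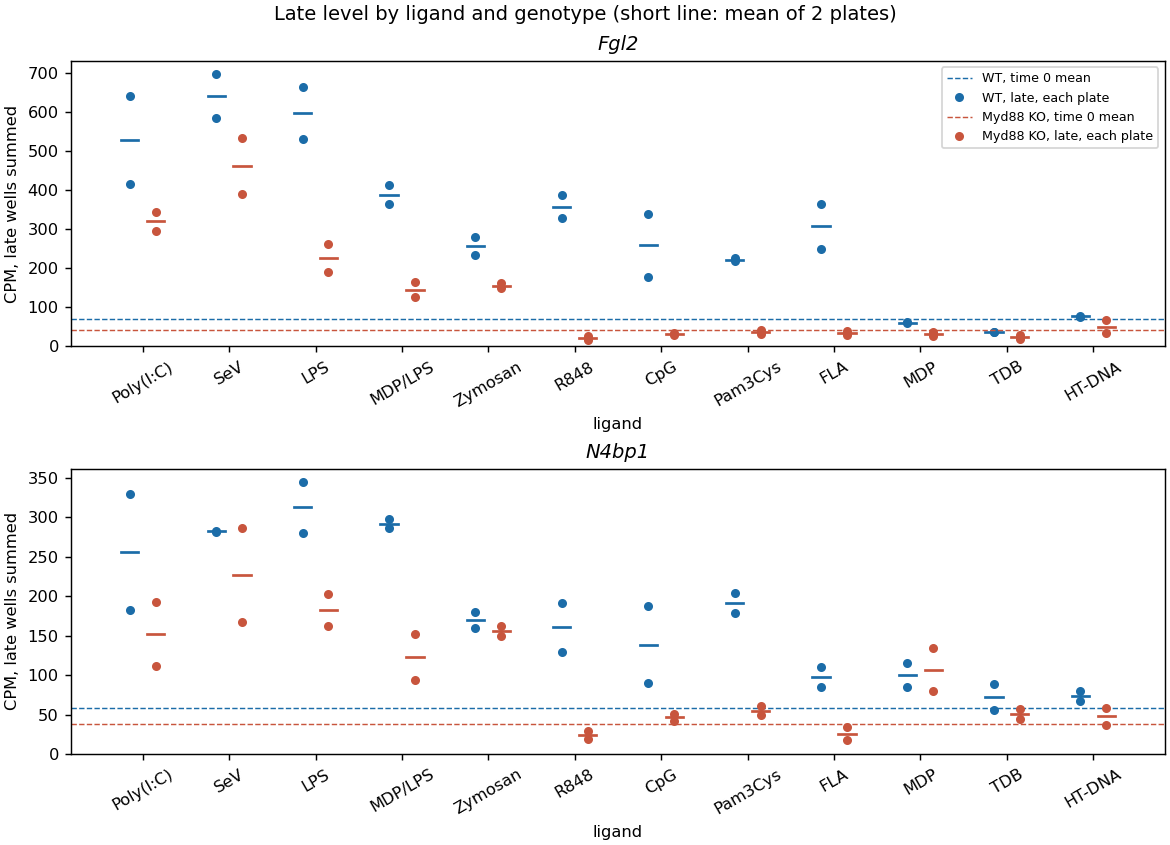
Late CPM of Fgl2 and N4bp1 with each of 12 ligands; points are plates, short lines their mean (n = 2), dashed lines the time 0 mean, blue WT and red Myd88 KO. With R848, CpG, Pam3Cys and FLA the WT plates of both genes lie above the KO plates, and the KO plates lie near the KO time 0 line.

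With the 5 inducing treatments the members' late change did not differ between the genotypes at the threshold. The difference passed for 0 of 41 members with LPS, MDP/LPS, Zymosan, Poly(I:C) and SeV (edgeR; 2, 2, 0, 0 and 0 at an unadjusted p under 0.05, and 0 in each with DESeq2). Over these 5 treatments 0% to 0.0189% of all genes had a lower change in KO. A miss does not show equal responses. The power of this difference was not simulated. For the simpler comparison of late LPS with time 0 in WT, counts were simulated with 100 genes changed per fold. Of these, 4% of genes changed 2-fold and 44% of those changed 4-fold were found. The rates were not worked out for the members, of which 27 of 41 passed in that comparison. They thus do not give the power for the members. The lowest differences, KO minus WT, with LPS were Ms4a6d at -1.35 (SE 0.65), Lgals9 at -1.19, Il15 at -0.99 and Pml at -0.91 on the log2 scale. Ms4a6d, a membrane protein, was at 50.2 and 51.8 CPM at time 0 and 114 and 107 CPM with LPS in WT, and at 50.3 and 42.1 CPM and then 51.0 and 32.1 CPM in KO, whose plates with LPS lay below both WT plates. Lgals9 was at 138 and 110.0 CPM with LPS in WT and 88.1 and 42.3 CPM in KO. The highest differences were Tnfsf10 at 0.93, Helz2 at 0.81, Setdb2 at 0.78 and Tdrd7 at 0.76, so that 24 of 41 members had a lower change in KO and 17 a higher one.

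With Zymosan, 16 members were called in WT and 26 in KO, and 34 of 41 differences were above 0, but 0 passed (edgeR; 0 at an unadjusted p under 0.05, 0 with DESeq2). Mx1 changed by 2.15 in WT and 3.08 in KO on the log2 scale, from 96.7 and 112 to 378 and 400.4 CPM and from 56.7 and 51.3 to 430.1 and 375 CPM, so that the late plates overlapped and the time 0 plates did not. At time 0, 0 of 41 members differed between the genotypes (edgeR; 1 at an unadjusted p under 0.05, Mx1, and 0 with DESeq2), beside 0.275% of all genes lower in KO, with 32 of 41 members below 0 and a median log2 difference of -0.29. A time 0 level that is lower in KO enters each change in KO. Over the 4 Myd88-using ligands the lowest differences after Fgl2 were Ch25h at -2.10, N4bp1 at -1.43 and Il15ra at -1.40, and the highest were Setdb2 at 1.64, Il18bp at 1.56, Ifi27l2a at 0.38 and Ms4a4c at 0.34.

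**Figure D5:**
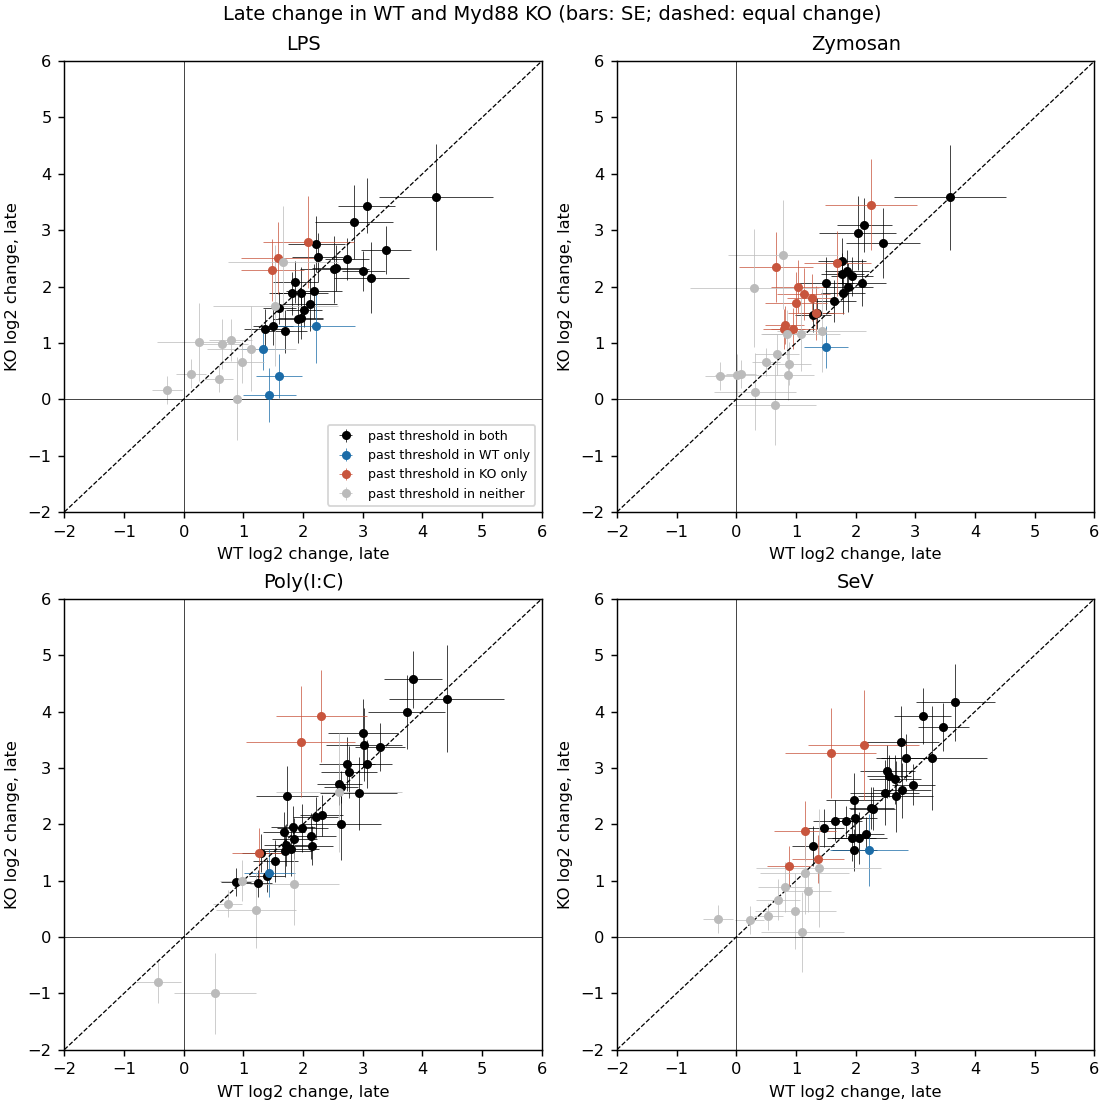
Late log2 change in KO against that in WT for 41 members with LPS, Zymosan, Poly(I:C) and SeV; bars are SE, the dashed line marks equal change, and colour marks where the member passed. Points lie along the dashed line with LPS, Poly(I:C) and SeV and mostly above it with Zymosan, where 34 of 41 differences were above 0 and 0 passed.

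The late level itself was lower in KO in 25 member-ligand pairs and higher in none. A difference in level keeps any difference already present at time 0. At time 0, 32 of 41 members were lower in KO, with a median log2 difference of -0.295. With CpG it was lower for 7 members (Ch25h, Eif2ak2, Fgl2, Helz2, Il15, Mx2 and N4bp1; 4.23% of all genes), with R848 for 5 (Ddx60, Fgl2, N4bp1, Xaf1 and Znfx1; 4.22%), with Pam3Cys for 4 (Ch25h, Fgl2, N4bp1 and Tor3a; 4.1%), with FLA for 4 (Fgl2, Ifi44, N4bp1 and Tor3a; 2.98%), with MDP/LPS for 4 (Fgl2, N4bp1, Sp110 and Sp140; 2.09%) and with LPS for Fgl2 (1.51%). Taken pair by pair, Fgl2 with all 6 ligands, N4bp1 with CpG, R848, Pam3Cys and MDP/LPS, and Sp110 and Sp140 with MDP/LPS had also risen with that ligand in WT, and the other pairs had not. Ch25h was at 62.8 and 45.1 CPM in WT and 0.86 and 6.54 CPM in KO with CpG, a log2 difference of -4.03 (SE 0.95, adjusted p = 0.00188), and at 31.8 and 43.5 CPM in WT and 5.49 and 0.88 CPM in KO with Pam3Cys. At time 0 it was at 13.9 and 20.8 CPM in WT and 4.69 and 9.90 CPM in KO. Sp110, a nuclear body protein, was at 551 and 652 CPM in WT and 378 and 194 CPM in KO with MDP/LPS, a log2 difference of -1.20 (SE 0.30, adjusted p = 0.00975), and Sp140 at 438 and 573 CPM in WT and 233 and 172 CPM in KO, a log2 difference of -1.45 (SE 0.35, adjusted p = 0.00544). Fgl2 with LPS differed by -1.53 (SE 0.40, adjusted p = 0.0195), with no overlap of plates, although its change was not called different.

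Tor3a, a torsin ATPase, was at 72.0 and 69.8 CPM in WT and 48.5 and 14.0 CPM in KO with Pam3Cys and at 99.9 and 80.6 CPM in WT and 25.0 and 44.0 CPM in KO with FLA. Xaf1 was at 191 and 201 CPM in WT and 111 and 60.4 CPM in KO with R848, and Znfx1, an RNA helicase, at 176 and 112 CPM in WT and 69.2 and 50.8 CPM in KO. Ddx60 was at 58.3 and 61.7 CPM in WT and 24.2 and 6.36 CPM in KO with R848, and Ifi44 at 53.6 and 68.0 CPM in WT and 22.5 and 15.0 CPM in KO with FLA. The WT and KO plates did not overlap for any of these 5 genes. The 25 pairs became 10 without WT replicate 1 and 9 without WT replicate 2.

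The 6 members called with none of the treatments differed in level. Ly6e, a membrane-anchored antiviral protein, was the most abundant, at 326 and 315 CPM at time 0 in WT and 413 and 520.0 CPM with Poly(I:C), a log2 change of 0.74 (SE 0.25, adjusted p = 0.0647). Bst2 stood at 78.8 and 73.6 CPM at time 0 and at 128 and 127 CPM with MDP/LPS, and it rose for LPS and MDP/LPS averaged in WT, a log2 change of 1.03 (SE 0.33, adjusted p = 0.0287). Tdrd7, a tudor domain protein, was at 17.8 and 27.8 CPM at time 0 and 51.1 and 41.1 CPM with Poly(I:C) in WT. Mov10, an RNA helicase, was at 11.2 and 16.4 CPM at time 0 and 27.2 and 61.1 CPM with Poly(I:C). Il18bp, which binds interleukin 18, was at 6.12 and 7.58 and 46.3 and 27.6 CPM, 30 and 24 counts at time 0 and 68 and 43 with Poly(I:C), a log2 change of 2.61 (SE 1.05, adjusted p = 0.173). The Poly(I:C) plates of these 3 lay above the time 0 plates, but the changes did not pass. Adar, which edits adenosines in double-stranded RNA, passed with Poly(I:C) in WT (45.9 and 45.8 CPM at time 0 and 85.8 and 132 CPM late) and with SeV in KO (48.4 and 35.0 and 89.0 and 91.6 CPM). Lgals3bp, a secreted glycoprotein, passed with Poly(I:C) in both, at 294 and 274 CPM at time 0 and 574 and 597 CPM late in WT and at 287 and 261 and 563 and 389 CPM in KO.

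Of 26 named genes of the interferon pathway itself, 25 were tested. Late with LPS, 11 rose in WT (Ifih1, Ifnar1, Ikbke, Irf1, Irf5, Irf7, Jak1, Mb21d1, Socs1, Stat2 and Usp18), and 0 fell. Irf1, a transcription factor of the Irf family, was the 1 pathway gene that rose within the first hour with LPS in both genotypes, beside 0.492% of all genes in WT and 0.502% in KO, while none of the 41 members passed then. In WT, Irf1 also rose early with R848, CpG, Pam3Cys and FLA, and in KO with none of these 4. The test of the difference in early change passed for Irf1 with Pam3Cys, lower in KO. With R848, CpG and FLA that difference passed for 0 of 25 pathway genes. Late with LPS it changed by 2.46 (SE 0.34, adjusted p = 1.23e-08) on the log2 scale in WT and 3.16 (SE 0.36, adjusted p = 3.14e-12) in KO. Ifih1, the sensor Mda5, changed by 2.89 (SE 0.33, adjusted p = 2.67e-12) and 2.70 (SE 0.33, adjusted p = 6.8e-11). Ifnb1, interferon beta, rose late with SeV in both genotypes and was not called with LPS. Its late log2 change with LPS was -4.57 (SE 2.66, adjusted p = 0.459) in WT and 1.04 (SE 1.32, adjusted p = 0.821) in KO. Values with so wide an SE cannot show whether it rose. With R848, Ikbke and Irf1 rose late in WT and 0 of 25 pathway genes in KO. The late change with R848 differed between the genotypes for 0 of 25.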

How the data were processed

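Gene expression was measured in 384 wells of mouse macrophages with a 3′ digital gene expression method. Per the labels, the deposited values are whole-number counts per gene and well, and per the submitters' processing notes BWA and the mm10 build were used, with other settings not stated there. Each genotype's 2 plates hold 96 wells each, with plate totals of 29737092 to 37323548 counts. Wells were summed by plate, ligand and time class (148 sums, 74 groups) and fitted with edgeR 4.0.16 in R 4.3.3 (quasi-likelihood, robust, TMM, filterByExpr minimum 10), with Benjamini-Hochberg adjustment over 10562 genes per comparison and a threshold of 0.05. DESeq2 1.42.0 was an alternative. The fit was tested on simulated data. SE is the absolute log2 change divided by the square root of F. CPM use raw library sizes. The members and lists were chosen with earlier results of these data known. Genes named were the members with the highest late LPS change in each role group, those with the lowest and highest genotype differences, and every member called where 6 or fewer passed. Ligand pairs were added after the data were seen. A replicate number marks a plate within a genotype, per the labels; the difference between the 2 plates correlated between groups of wells with a median r of 0.012 in WT and 0.016 in KO (666 pairs each), and the fit with plate as a block was an alternative.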

Additional observations from a re-analysis of the deposited data

Results flagged for a closer look

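5 differences between the genotypes in the change against time 0 passed edgeR's test of the difference itself. For Fgl2 they were -2.53 (KO minus WT, log2 scale) over the mean of Pam3Cys, R848, CpG and FLA, -3.32 with R848 late, -2.44 with CpG late and -4.75 with R848 at 1.5 to 2 h, and for N4bp1 -2.10 with R848 late. Both WT plates lay above both KO plates in each of these groups. They also did so at time 0 for both genes, so this alone does not show a different change. The R848 value at 1.5 to 2 h rests on 2 and 0 KO counts of Fgl2, so its size depends on the prior count of the fit.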

How the results depend on the processing

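Of 463 member values past the threshold, 0 changed direction under 12 alternatives, and the wells fitted in place of plate sums lost 0 of them, DESeq2 2, late wells of 3 and 4 h alone 6, wells over 150000 counts alone 7, no filter on low counts 22, subtraction of the largest plate-wide carry-over between wells 64 and library size without TMM 68. Leaving out WT replicate 1 lost 243, WT replicate 2 lost 230, KO replicate 1 lost 55 and KO replicate 2 lost 53; fewer samples estimate the spread in these fits. With a replicate block (plate within genotype), levels between genotypes could not be fitted and 0 of the other 438 calls were lost. The block gave 2 members with a genotype difference over the mean of Pam3Cys, R848, CpG and FLA, where the reported fit gave 1.

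Counts of calls that moved by over 1.5 times were these, and the cause was not tested. DESeq2 gave 1 early pair in WT and 2 in KO, 14 middle pairs in WT, 16 ligand-pair differences in WT and 2 genotype differences over the 4 Myd88-using ligands. Without the filter there were 12 middle pairs in WT, 0 pairs with MDP, TDB and HT-DNA in KO and 5 late genotype differences. Library size alone gave 3 ligand-pair differences in KO. Wells in place of sums, which treat wells of a plate as separate samples, gave 27 members with Zymosan in WT, 11 WT pairs with the 4 Myd88-using ligands and 5 members over their mean (1 in KO), 1 early pair in WT and 2 in KO, 22 and 27 middle pairs, 20 and 18 ligand-pair differences, 4 KO pairs with MDP, TDB and HT-DNA, 7 late genotype differences, 6 at time 0, 5 over the 4 ligands and 1 over LPS and MDP/LPS. Carry-over subtraction gave 4 ligand-pair differences in WT and 0 in KO, 0 KO pairs with MDP, TDB and HT-DNA, 8 middle pairs in KO, 1 late and 0 earlier genotype differences and 15 level differences. With late as 3 and 4 h, and 2.5 h in the middle class, middle pairs numbered 26 in WT and 28 in KO, with 0 KO pairs with MDP, TDB and HT-DNA. The median LPS midpoint in WT, 2.10 h, was 2.74 h with the highest late well as the upper level and 2.33 h with the plates summed.

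With 1 plate left out at a time, WT members risen late numbered 5 to 32 with LPS, 6 to 32 with MDP/LPS, 7 to 37 with Poly(I:C), 7 to 28 with SeV, 0 to 24 with Zymosan, 7 to 33 over LPS and MDP/LPS, 9 to 34 over Poly(I:C) and SeV and 0 to 2 over the 4 Myd88-using ligands (0 to 8 pairs). Early pairs ran from 0 to 1 in WT and 0 to 5 in KO, middle pairs from 0 to 20 and 6 to 14, ligand-pair differences from 0 to 22 and 0 to 3, and KO pairs with MDP, TDB and HT-DNA from 0 to 2. Genotype differences ran from 0 to 4 late, 0 to 5 earlier, 0 to 2 over the 4 ligands and 9 to 35 for the late level.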
